A study of Mus musculus with 6 samples.

Results

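A set of 9 genes of plasma proteins that the liver is best known for making was followed in cultured pancreatic colonies: Hp, Lbp, Apcs, Rbp4, Ttr, Mup20, Gpx3, C4bp and Gpc3. They are among the 11164 genes in the table, and they were chosen by name because they differed strongly between groups in these same libraries. Their differences are therefore given as measurements, with no test. Most encode secreted proteins. Gpc3 is the exception and encodes a proteoglycan held on the cell surface by a lipid anchor, and Gpx3 is made mainly in kidney, so the liver label holds for them only in part.

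RNA came from colonies of sorted pancreas cells, with high CD133 (encoded by Prom1) and low CD71, taken from C57Bl/6 mice aged 2 to 4 months. The cells received lentivirus overnight and grew for 3 weeks in methylcellulose and Matrigel with puromycin, fetal calf serum, RSPO1, nicotinamide, exendin-4 and activin B. There were 3 groups of 2 libraries, numbered 1 and 3: a control given 1 shRNA without a mammalian target, a Glis3 knockdown and a CD133 knockdown, each of the latter with a pool of 5 shRNA clones. The control thus differed from the knockdowns in the number of shRNAs as well as in the target. Nothing in the labels states that libraries 1 and 3 are different mice or cultures, and their spread, on which p-values rest, may be technical.

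Plasma proteins such as these are made in large amounts by hepatocytes, where factors of the HNF1, HNF4, FOXA and C/EBP families drive their genes. Several are acute phase proteins, whose synthesis changes in inflammation when cytokines of the IL-6 family act through STAT3 and IL-1 acts through NF-kB. Pancreas and liver arise from neighbouring foregut endoderm and share many of these factors, and Glis3 is a zinc finger transcription factor needed in the pancreas for beta cells and ducts.

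The sequence before the start site is shown for the members with a RefSeq promoter entry (GRCm38.p6) with differences in either direction, so that genes lower in both knockdowns (Apcs, Rbp4, Gpc3, Gpx3) can be read beside the gene that was higher in both (C4bp). Each sequence runs 5′ to 3′ along the gene's strand, stops before the first annotated exon base, and has matches to the motifs searched in capitals. Apcs lies at chr1:172895055-172895304, Rbp4 at chr19:38125322-38125571, Gpc3 at chrX:52613975-52614224 and C4bp at chr1:130661633-130661868, all on the minus strand, and Gpx3 at chr11:54902604-54902771 on the plus strand. The Gpx3 stretch lies before its RefSeq start site, 54902854, but after the GENCODE start of the gene, 54902453. An annotated exon ended it early, so the bases next to the RefSeq start site were not searched.
Apcs: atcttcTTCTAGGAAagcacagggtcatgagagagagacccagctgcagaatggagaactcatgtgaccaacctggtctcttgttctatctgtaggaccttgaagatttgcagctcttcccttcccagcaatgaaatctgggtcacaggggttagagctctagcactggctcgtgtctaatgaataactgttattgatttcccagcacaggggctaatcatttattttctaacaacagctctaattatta
Rbp4: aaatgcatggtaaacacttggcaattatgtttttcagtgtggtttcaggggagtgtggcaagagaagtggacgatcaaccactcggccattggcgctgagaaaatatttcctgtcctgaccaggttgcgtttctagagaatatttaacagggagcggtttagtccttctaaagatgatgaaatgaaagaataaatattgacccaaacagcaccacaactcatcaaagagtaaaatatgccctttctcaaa
Gpc3: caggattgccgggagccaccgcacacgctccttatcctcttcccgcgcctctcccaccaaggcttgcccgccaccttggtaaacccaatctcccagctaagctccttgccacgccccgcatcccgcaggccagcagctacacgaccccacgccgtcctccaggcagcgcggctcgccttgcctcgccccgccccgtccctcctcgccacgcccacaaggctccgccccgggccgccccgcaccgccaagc
Gpx3: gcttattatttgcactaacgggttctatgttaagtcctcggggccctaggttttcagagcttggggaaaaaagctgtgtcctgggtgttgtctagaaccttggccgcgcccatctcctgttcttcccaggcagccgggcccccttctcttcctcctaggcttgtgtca
C4bp: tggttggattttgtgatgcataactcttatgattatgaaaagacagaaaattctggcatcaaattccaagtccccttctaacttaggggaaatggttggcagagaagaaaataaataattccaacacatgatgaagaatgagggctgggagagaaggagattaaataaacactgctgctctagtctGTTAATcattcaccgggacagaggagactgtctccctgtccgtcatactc
The Gpc3 sequence was 71.6% G and C, against 44.0% for Apcs, 54.2% for Gpx3, 40.8% for Rbp4 and 40.7% for C4bp. A set of 5 motifs was searched on both strands: the HNF1 core GTTAAT, the C/EBP letters TTGCNNAA, the STAT letters TTCNNNGAA, the GLIS letters TGGGGGGT and the start element TATAAA, and no match overlapped another. Apcs held the STAT letters, TTCTAGGAA, 244 bases before its start site, and C4bp held the HNF1 core 64 bases before its own. None of the 5 motifs matched in the stretches shown for Rbp4, Gpc3 or Gpx3. The Gpx3 stretch has 168 bases and that of C4bp 236, fewer than the 250 of the other sequences shown. Rbp4 has another RefSeq start site, 38124811, where annotated exons left 0 bases, so it was not searched. Of 32851 RefSeq starts, 6.4% held GTTAAT within 250 bases, 9.6% TTGCNNAA, 7.0% TTCNNNGAA, 1.4% TGGGGGGT and 12.4% TATAAA. At the 10880 starts of genes tested here the shares were 3.9%, 7.2%, 5.7%, 1.3% and 6.1%, in the same order. A match is a description of letters and not of binding. Hp, Lbp, Ttr and Mup20 are described by their values only.

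The targeted genes were lowered in their own groups. Glis3 stood at 26.05 and 24.22 RPKM (a read number set relative to transcript length and library depth) in the control libraries and at 13.31 and 11.96 in the Glis3 knockdown (log2 difference -0.94, limma adjusted p = 0.00281), while the CD133 knockdown held 24.75 and 24.19. Prom1 stood at 191.25 and 203.42 RPKM in controls, 220.99 and 201.59 in the Glis3 knockdown and 88.03 and 96.00 in the CD133 knockdown (log2 difference -1.09, adjusted p = 0.00874). Libraries held an estimated 25.8 to 29.2 megareads (M). The cells were labelled as pancreatic progenitors, and 11 of 12 duct markers had a row, with sums of 9519 to 10110 RPKM in controls, 7478 to 8876 in the Glis3 knockdown and 7685 to 8011 in the CD133 knockdown. Of hepatocyte markers 2 of 18 had a row, Ass1 and Apoa2, with sums of 9.06 to 9.86 RPKM in controls, 10.82 to 11 in the Glis3 knockdown and 10.87 to 12.73 in the CD133 knockdown. Most of the sum was Ass1, at 7.74 and 9.22 RPKM in control, 9.44 and 9.30 in the Glis3 knockdown and 12.51 and 10.46 in the CD133 knockdown. Apoa2 had another order, with 1.32 and 0.64 RPKM in control, 1.38 and 1.70 in the Glis3 knockdown and 0.22 and 0.41 in the CD133 knockdown. The other hepatocyte markers, Alb included, had no row and so were not analysed here. Of 14 macrophage and leukocyte markers Cd68 had a row, with 5.12 to 6.39 RPKM over the libraries, and of 7 endothelial markers 0 had one.

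The acute phase genes Hp, Lbp and Apcs were lower in all 4 knockdown libraries than in both controls. Hp encodes haptoglobin, which binds free haemoglobin (ENSMUSG00000031722, chr8:109575128-109579172, minus strand). It read 7.59 and 5.95 RPKM in control libraries 1 and 3, 1.54 and 1.22 in the Glis3 knockdown and 1.23 and 2.64 in the CD133 knockdown. The means were 6.77 ± 1.16 (SD, n = 2), 1.38 ± 0.226 and 1.94 ± 0.997 RPKM, or 20.4% and 28.6% of control. On the log2(RPKM + 1) scale, used for every difference here and understating the change of low genes, Hp was -1.70 in the Glis3 knockdown and -1.44 in the CD133 knockdown relative to control, each with a moderated SE of 0.23. The 2 knockdowns overlapped each other.

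Lbp encodes the lipopolysaccharide binding protein, which hands bacterial lipopolysaccharide to CD14 (ENSMUSG00000016024, chr2:158306493-158332852, plus strand). It was the most abundant member, at 95.25 and 96.85 RPKM in control, and read 38.09 and 22.02 in the Glis3 knockdown and 43.73 and 76.19 in the CD133 knockdown. Here the 3 groups did not overlap: control was highest, CD133 knockdown next and Glis3 knockdown lowest, at 62.4% and 31.3% of control. Group means were 96.05 ± 1.13 RPKM (SD, n = 2) in control, 30.1 ± 11.4 in the Glis3 knockdown and 59.96 ± 22.95 in the CD133 knockdown. The log2 differences were -0.72 in the CD133 knockdown and -1.69 in the Glis3 knockdown (SE 0.30). The CD133 value was -0.33 without CD133 library 1 and -1.12 without CD133 library 3.

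Apcs encodes serum amyloid P, a pentraxin that is the main acute phase pentraxin of the mouse (ENSMUSG00000026542, chr1:172893961-172895041, minus strand). It read 4.89 and 5.54 RPKM in control, 2.29 and 1.23 in the Glis3 knockdown and 1.40 and 1.55 in the CD133 knockdown. These averaged 5.215 ± 0.460, 1.76 ± 0.750 and 1.475 ± 0.106 RPKM, so the knockdowns stood at 33.7% and 28.3% of control. In log2 terms the Glis3 knockdown was at -1.20 and the CD133 knockdown at -1.33 (SE 0.17), and their libraries overlapped. The lowest value, 1.23 RPKM, corresponds to about 34 reads at the estimated depth, so counting error alone is near 17.1%.

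Carriers of small molecules split into 2 patterns. Rbp4, the plasma carrier of retinol, which travels bound to transthyretin (ENSMUSG00000024990, chr19:38116629-38125281, minus strand), was lower in both knockdowns. It read 28.04 and 26.41 RPKM in control, 10.44 and 7.83 in the Glis3 knockdown and 8.77 and 11.37 in the CD133 knockdown. The averages of 27.2 ± 1.15, 9.135 ± 1.85 and 10.07 ± 1.84 RPKM put the knockdowns at 33.6% and 37.0% of control. The log2 differences were -1.49 and -1.36 (SE 0.15), and the 2 knockdowns overlapped.

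Ttr, transthyretin itself, the thyroxine carrier (ENSMUSG00000061808, chr18:20665280-20674321, plus strand), went the other way in the Glis3 knockdown. It read 21.65 and 19.56 RPKM in control, 27.61 and 30.37 in the Glis3 knockdown and 10.28 and 12.10 in the CD133 knockdown, so all 3 groups were apart. With means of 20.6 ± 1.48, 28.99 ± 1.95 and 11.19 ± 1.29 RPKM, the Glis3 knockdown stood at 140.7% of control and the CD133 knockdown at 54.3%, with log2 differences of 0.47 and -0.83 (SE 0.09). Mup20, which encodes darcin, a lipocalin pheromone of male mouse urine (ENSMUSG00000078672, chr4:62050234-62054158, minus strand), had the same order. It read 44.99 and 42.93 RPKM in control, 76.24 and 54.09 in the Glis3 knockdown and 16.56 and 14.63 in the CD133 knockdown. The group means were 43.96 ± 1.46, 65.2 ± 15.7 and 15.6 ± 1.36 RPKM. Relative to control this was 0.54 and -1.44 on the log2 scale (SE 0.15), or 148.2% and 35.5% of control, and the first difference was 0.29 without Glis3 library 1. Other genes of the Mup family had no row, and how reads were assigned within the family was not examined. In bulk RNA, fewer cells of a type and less RNA per cell cannot be told apart. The summed islet markers were also lowest in the CD133 knockdown: the 6 of 16 with a row summed to 4.85 to 11.09 RPKM in control, 7.81 to 14.57 in the Glis3 knockdown and 1.61 to 3.36 in the CD133 knockdown, so that control and Glis3 knockdown overlapped. Sst, encoding somatostatin, made up most of the sum in control and in the Glis3 knockdown, but not in the CD133 knockdown. It read 2.56 and 5.89 RPKM in control, 8.15 and 4.22 in the Glis3 knockdown and 1.43 and 0.55 in the CD133 knockdown. Of the 2 islet markers above the filter, neither Sst (-1.35, adjusted p = 0.0685) nor Gcg (-0.51, adjusted p = 0.45) passed in the CD133 knockdown. Pcsk1 had another order, with 0.44 and 0.34 RPKM in control, 1.73 and 1.40 in the Glis3 knockdown and 0.55 and 0.51 in the CD133 knockdown. Ins1 and Ins2, also on the islet list, had no row and so were not analysed here. The part of islet cells in the Ttr and Mup20 values was not tested.

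**Figure D1:**
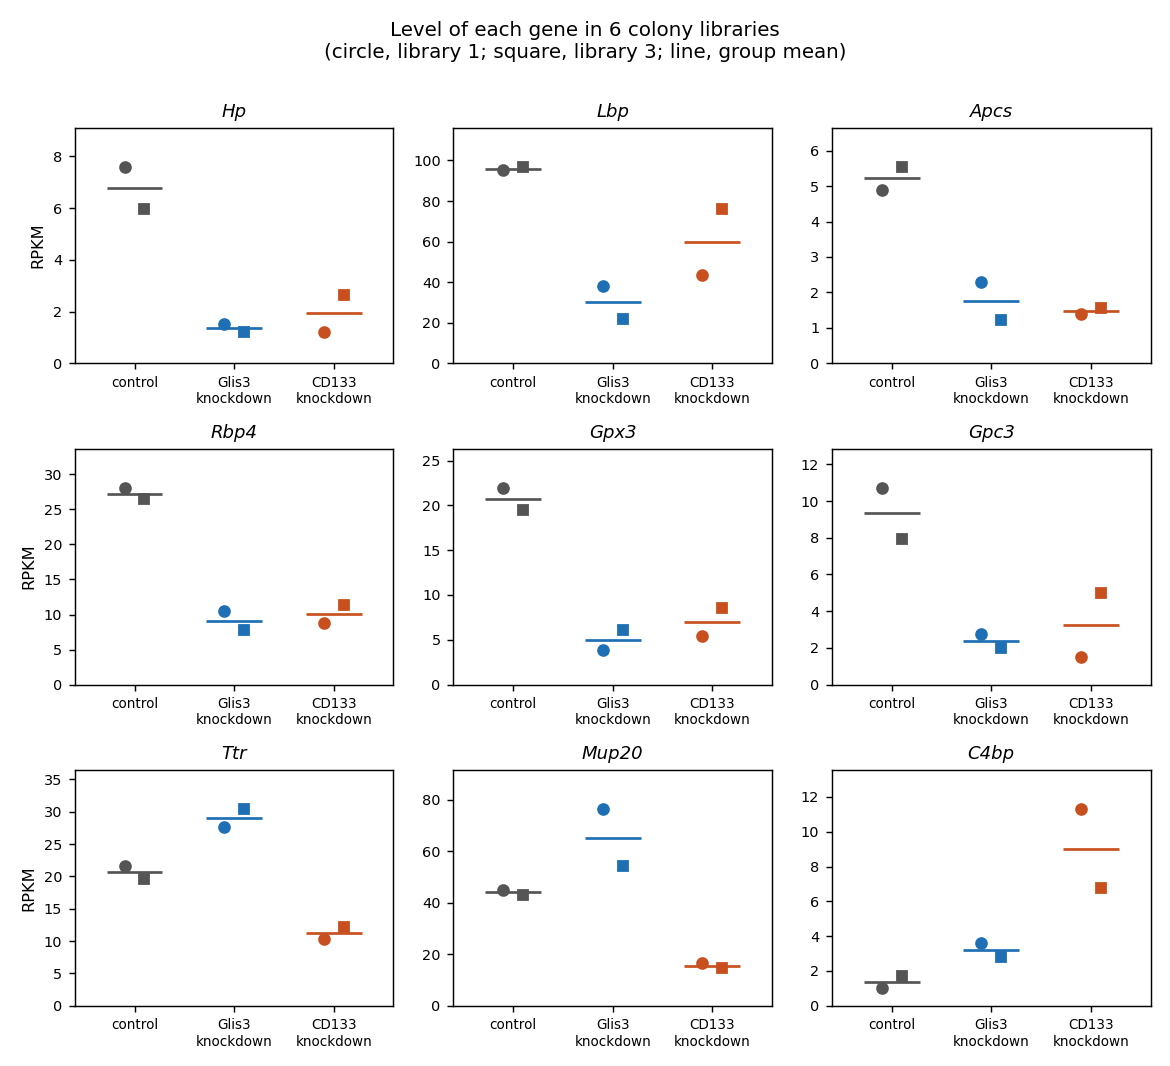
RPKM of each member in each of the 6 libraries, with a panel per gene with its own axis from 0; circles and squares are libraries 1 and 3 and lines are group means. The 6 genes of the upper rows have both controls above all 4 knockdown libraries, Ttr and Mup20 are lowest in the CD133 knockdown and highest in the Glis3 knockdown, and C4bp is lowest in control.

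Gpx3, the extracellular glutathione peroxidase that reduces peroxides in plasma (ENSMUSG00000018339, chr11:54902453-54910377, plus strand), was lower in both knockdowns. It read 21.93 and 19.50 RPKM in control, 3.81 and 6.06 in the Glis3 knockdown and 5.37 and 8.58 in the CD133 knockdown. Means of 20.7 ± 1.72, 4.935 ± 1.59 and 6.975 ± 2.27 RPKM left the knockdowns at 23.8% and 33.7% of control. The log2 differences were -1.90 and -1.47 (SE 0.23).

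Gpc3 encodes glypican 3, a cell surface heparan sulfate proteoglycan that binds Hedgehog and Wnt ligands and marks fetal liver (ENSMUSG00000055653, chrX:52272426-52613950, minus strand). It read 10.71 and 7.95 RPKM in control, 2.74 and 2.01 in the Glis3 knockdown and 1.53 and 5.01 in the CD133 knockdown. The means of 9.33 ± 1.95, 2.375 ± 0.516 and 3.27 ± 2.46 RPKM were 25.5% and 35.0% of control in the knockdowns. Its log2 differences, -1.61 and -1.39, had the largest SE of the members (0.37). The CD133 value was -0.77 without CD133 library 1, as its 2 libraries lay far apart.

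C4bp encodes C4b-binding protein, an inhibitor of the classical complement pathway (ENSMUSG00000026405, chr1:130634773-130661632, minus strand), and was alone among the members in being higher in both knockdowns. It read 1.05 and 1.71 RPKM in control, 3.61 and 2.83 in the Glis3 knockdown and 11.29 and 6.77 in the CD133 knockdown. The 3 groups did not overlap, with means of 1.38 ± 0.467, 3.22 ± 0.552 and 9.03 ± 3.20 RPKM, or 233.3% and 654.3% of control in the Glis3 and CD133 knockdowns. On the log2 scale it was 0.83 above control in the first and 2.05 in the second (SE 0.23). In the lowest library, 1.05 RPKM corresponds to about 86 reads.

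**Figure D2:**
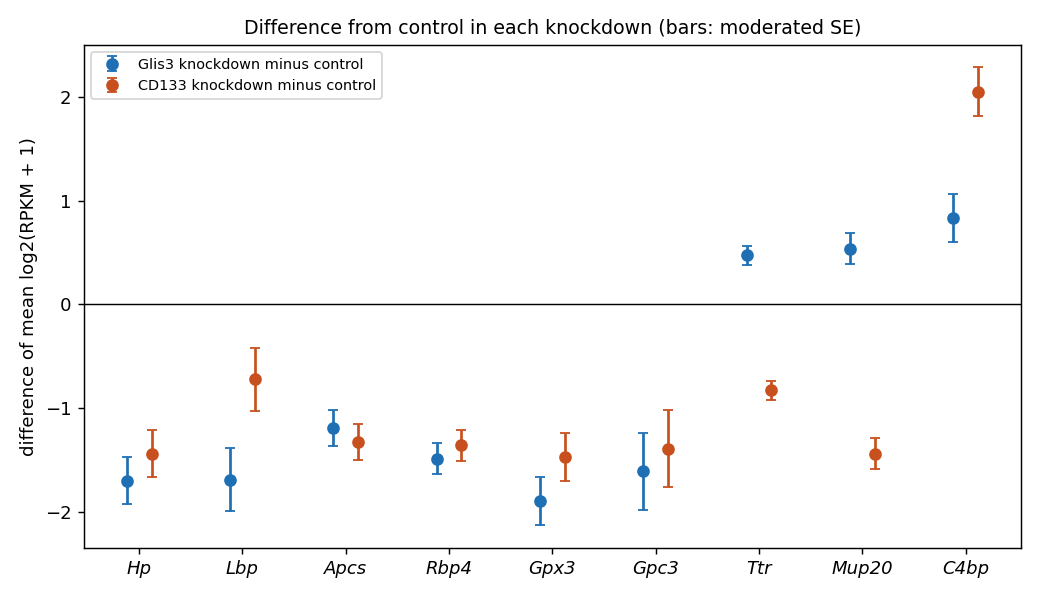
Difference of each member from control on the log2(RPKM + 1) scale in the Glis3 and CD133 knockdowns, with bars of 1 moderated SE. Hp, Lbp, Apcs, Rbp4, Gpx3 and Gpc3 lie below 0 in both, C4bp above 0 in both, and Ttr and Mup20 on opposite sides.

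The 6 genes lower in all 4 knockdown libraries (Hp, Lbp, Apcs, Rbp4, Gpx3, Gpc3) shared that order with 1245 of the 10829 genes tested, or 11.5%. The choice of members used these values, so nothing is read from that count. Both knockdowns were set against the same controls, so the 2 sets of differences share them. Within these 6 genes, CD133 library 3 was higher than library 1 in 6 of 6, and Glis3 library 3 was lower than library 1 in 5 of 6, with Gpx3 the exception. Over the 1245 genes the same orders held in 73.8% and 67.1%, and over all tested genes in 50.5% and 53.5%. Between the knockdowns directly, Ttr (log2 difference 1.30) and Mup20 (1.98) were higher in the Glis3 knockdown, while Lbp (-0.97) and C4bp (-1.22) were lower. The Lbp difference was -0.58 without CD133 library 3 and -0.59 without Glis3 library 3. For Hp, Apcs, Rbp4, Gpx3 and Gpc3 the libraries of the knockdowns overlapped.

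Some members were each other's neighbours by profile over the 6 libraries: Hp was among the 3 genes nearest to Gpx3 and to Gpc3, and Rbp4 among those nearest to Hp and to Apcs. Likeness was measured as the root mean square difference between gene-centred log2 values, so smaller is more alike. Nearest to Hp were Trf (0.083), which encodes transferrin, Tmem178 (0.153) and Rbp4 (0.160). Nearest to Rbp4 were Tmem178 (0.043), Cyp4b1 (0.121) and Adora2b (0.158), and nearest to Apcs Cyp4b1 (0.164), Rbp4 (0.173) and Tmem178 (0.186). Gpx3 was nearest to Trf (0.180), Hp (0.238) and Tmem178 (0.306), and Gpc3 to Hp (0.166) and Trf (0.218). Lbp was nearest to Chil1 (0.171), Foxj1 (0.209) and C4b (0.211). Ttr was nearest to Serpinb9 (0.125), Fgf9 (0.146) and Tmtc1 (0.164), and Mup20 to Sst (0.343), S1pr1 (0.346) and Prom1 (0.351). C4bp was nearest to Clca3b (0.165), Duox2 (0.222) and Ndnf (0.240). Each measure rests on 6 libraries that all genes share, and the members were chosen for large changes in these libraries. Likeness among members follows in part from that choice. Some pairs lower in both knockdowns were less alike. For example, 35 tested genes were nearer to Hp than Lbp was, and 292 were nearer to Apcs than Gpx3 was. The pair Ttr and Mup20, which had the same order of groups, differed by 0.371, and 92 tested genes were nearer to Ttr than Mup20 was.

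**Figure D3:**
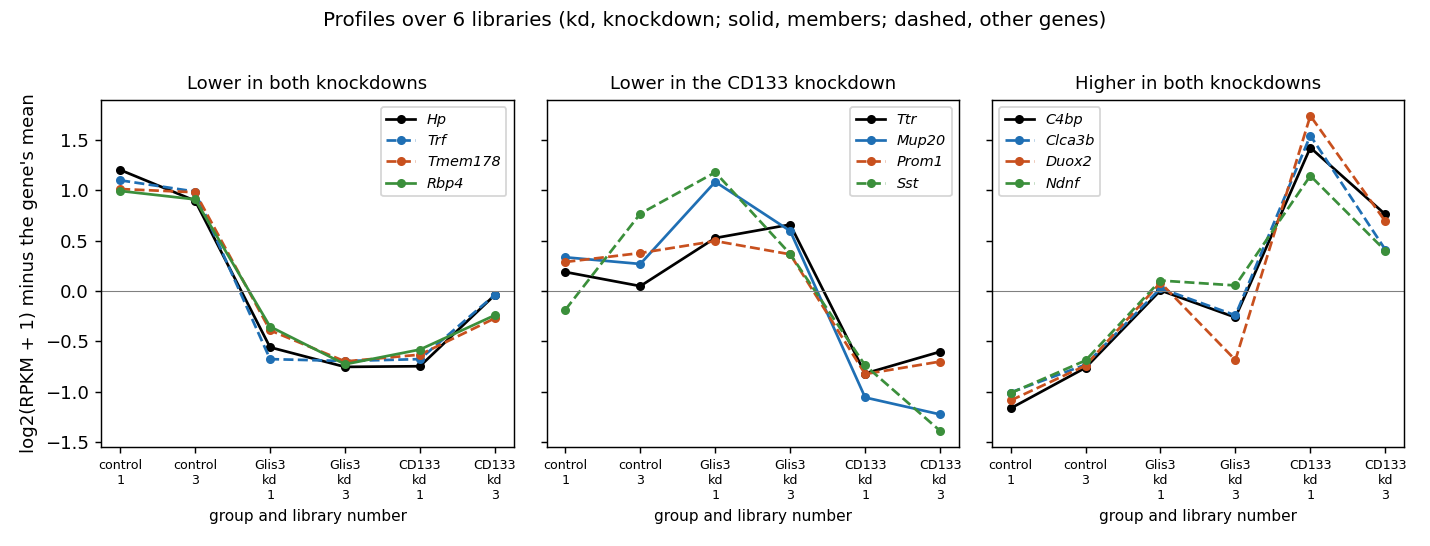
Log2(RPKM + 1) minus the gene's mean in each of the 6 libraries, with Hp, Rbp4, Ttr, Mup20 and C4bp as solid lines and genes of similar profile as dashed lines. Hp and Rbp4 run with Trf and Tmem178 and are higher in CD133 library 3 than in CD133 library 1, and Ttr and Mup20 drop in the CD133 knockdown as Prom1 and Sst do.

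Other plasma protein genes, which are no members, were tested with limma over all genes, where 4.53% were lower and 8.39% higher in the Glis3 knockdown, and 3.64% lower and 8.16% higher in the CD133 knockdown. A set of 4 lists (carriers, acute phase, coagulation with protease inhibitors, complement) named 136 genes besides the members. Of these 38 had a row and 33 were tested, so the counts below leave out most of the listed genes. The lists were chosen with earlier results of these data known, so their shares are not independent support for the members. In the Glis3 knockdown 12 of the 33 fell (36.4%) and 0 rose, with a median log2 difference of -0.35 against 0.04 over all genes. In the CD133 knockdown 2 fell (6.06%) and 3 rose (9.09%), with a median of -0.17 against 0.04. Between the knockdowns, where 2.46% of all genes were lower and 1.61% higher in the Glis3 knockdown, 3 of 33 were lower and 0 higher. Without control library 1 or control library 3, 0 of these genes passed in any comparison by limma, with 17 and 12 of them lower in the Glis3 knockdown at unadjusted p under 0.05. With a minimum mean of 5 RPKM, 20 of these genes were tested and 7 fell in the Glis3 knockdown. The median there was -0.26 without Glis3 library 3 and -0.48 without Glis3 library 1. In the CD133 knockdown the median was -0.06 without CD133 library 1 and -0.36 without CD133 library 3. The 3 between the knockdowns became 8 without Glis3 library 1, 1 without Glis3 library 3, 0 without CD133 library 1 and 1 without CD133 library 3.

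Markers of other cell types differed between the same libraries. Fn1, fibronectin, the only mesenchymal marker of 13 with a row and also a plasma protein of the liver, fell in both knockdowns. It read 112.32 and 111.93 RPKM in control, 53.48 and 56.31 in the Glis3 knockdown (-1.02, adjusted p = 0.000987) and 84.70 and 87.79 in the CD133 knockdown (-0.37, adjusted p = 0.0159). Acinar markers, 2 of 16 with a row, summed to 197.09 to 305.21 RPKM in control, 49.27 to 108.68 in the Glis3 knockdown and 383.06 to 388.98 in the CD133 knockdown. Nearly all of that sum was Reg1, at 196.51 and 304.37 RPKM in control, 107.77 and 48.57 in the Glis3 knockdown and 388.49 and 382 in the CD133 knockdown, while Cela1 stayed between 0.49 and 1.06 RPKM. The duct sums were lower in both knockdowns, and Spp1, osteopontin, was the largest part of each. It read 6490 and 6733 RPKM in control, 5212 and 4168 in the Glis3 knockdown (-0.50, adjusted p = 0.108) and 3127 and 4202 in the CD133 knockdown (-0.87, adjusted p = 0.029). Of the 11 duct markers with a row, 4 rose in the CD133 knockdown and 1, Spp1, fell. Krt19, a duct keratin, was among those that rose (0.66, adjusted p = 0.0312). The part of these markers in the member and list values was not tested.

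Among 9 tested carriers, 5 fell in the Glis3 knockdown and 1 in the CD133 knockdown, with medians of -0.80 and -0.04. Trf, transferrin, read 7.06 and 6.46 RPKM in control, 1.36 and 1.33 in the Glis3 knockdown and 1.36 and 2.67 in the CD133 knockdown. Its log2 differences were -1.73 (adjusted p = 0.0066) and -1.40 (adjusted p = 0.0149). Gc, the vitamin D binding protein, fell in the Glis3 knockdown (-0.93, adjusted p = 0.0257) and did not pass in the CD133 knockdown (-0.04, adjusted p = 0.904), with 242.87 and 273.01 RPKM in control, 166.67 and 109.47 there and 236.59 and 264.48 in the CD133 knockdown. Its difference between the knockdowns was -0.88 (adjusted p = 0.0517). Hpx, hemopexin, the haem carrier (-0.80, adjusted p = 0.0352), and Igfbp4 (-0.82, adjusted p = 0.0166) also fell in the Glis3 knockdown. Hpx averaged 1.86 RPKM in control, 0.64 in the Glis3 knockdown and 1.065 in the CD133 knockdown. It passed the filter of 1 RPKM only through control, so nothing is read from its call. Clu, the most abundant carrier, was at -0.13 and did not pass. Serpina7, which encodes the thyroxine-binding globulin and so shares its cargo with Ttr, was picked out after its values were seen. It read 22.21 and 26.87 RPKM in control, 11.33 and 2.78 in the Glis3 knockdown and 6.49 and 10.48 in the CD133 knockdown, and did not pass in either (-1.90, adjusted p = 0.0547, and -1.46, adjusted p = 0.106).

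Of 8 tested acute phase genes, 3 fell in the Glis3 knockdown and 0 in the CD133 knockdown, with medians of -0.73 and -0.39. They were Lcn2, a siderophore-binding lipocalin (-0.997, adjusted p = 0.0468), Cp, the copper protein ceruloplasmin (-0.96, adjusted p = 0.0294), and C3, the central complement protein (-0.82, adjusted p = 0.0225). Of 9 tested complement genes 3 fell in the Glis3 knockdown, C3 again among them, and 1 fell and 2 rose in the CD133 knockdown. C4b, whose reads are hard to separate from its near-identical copy C4a, fell in the Glis3 knockdown (-1.31, adjusted p = 0.025), and Cfp, properdin, rose in the CD133 knockdown (0.82, adjusted p = 0.0131).

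Of 9 tested coagulation and protease inhibitor genes, 2 fell in the Glis3 knockdown and 1 rose in the CD133 knockdown. Pros1, protein S, a cofactor in the inhibition of clotting, fell in the Glis3 knockdown (-0.79, adjusted p = 0.0131). Habp2 rose in the CD133 knockdown (0.87, adjusted p = 0.0384). It averaged 1 RPKM in control, 0.96 in the Glis3 knockdown and 2.735 in the CD133 knockdown. Without its CD133 values it would not have passed the filter of 1 RPKM, so nothing is read from that call. Serpine2 was lower in the Glis3 knockdown than in the CD133 knockdown (-0.71, adjusted p = 0.0229), and Plat did not pass in any comparison.

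**Figure D4:**
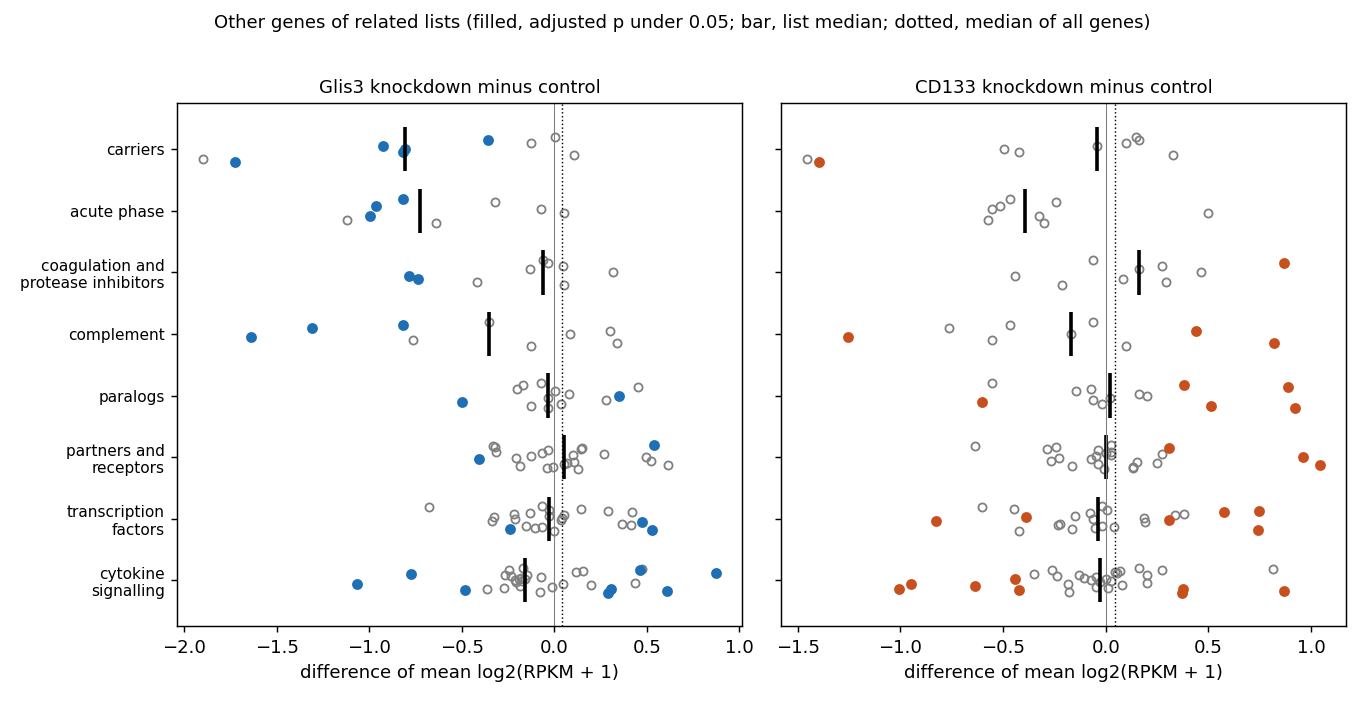
Log2 differences of the tested genes of the context lists from control in each knockdown, a point per gene, filled where the adjusted p passed, with the list median and the median over all tested genes. In the Glis3 knockdown the medians of carriers (-0.80) and acute phase genes (-0.73) lie lowest, and in the CD133 knockdown they are -0.04 and -0.39.

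Of 13 tested paralogs of the members, 1 rose and 1 fell in the Glis3 knockdown, and 4 rose and 1 fell in the CD133 knockdown. Rbp2, an intracellular retinol carrier (0.92, adjusted p = 0.0473), and the glypican Gpc2 (0.89, adjusted p = 0.0213) rose in the CD133 knockdown. Rbp2 averaged 0.865 RPKM in control, 0.83 in the Glis3 knockdown and 2.585 in the CD133 knockdown, and Gpc2 0.61, 1.215 and 1.99. Without their CD133 values neither would have passed the filter of 1 RPKM, so nothing is read from these calls. Nptx2, a pentraxin, fell in both (-0.50, adjusted p = 0.0459, and -0.60, adjusted p = 0.0293), and Gpx2 rose in the Glis3 knockdown (0.35, adjusted p = 0.0437).

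Of 23 tested partners and receptors, 1 rose and 1 fell in the Glis3 knockdown and 3 rose in the CD133 knockdown. Stra6, the receptor that takes retinol from Rbp4 into cells, rose in the CD133 knockdown (1.04, adjusted p = 0.0434), as did Notum, which removes a lipid from Wnt proteins (0.96, adjusted p = 0.039). Aldh1a1, which makes retinoic acid, rose in the Glis3 knockdown (0.54, adjusted p = 0.0283), and Rarb, a retinoic acid receptor, was higher there than in the CD133 knockdown (0.79, adjusted p = 0.0479). Cd14, which receives lipopolysaccharide from Lbp, did not pass (-0.32 and -0.24).

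Among 24 tested liver and foregut transcription factors, 2 rose and 1 fell in the Glis3 knockdown, and 4 rose and 2 fell in the CD133 knockdown. Tef rose in both (0.53, adjusted p = 0.0079, and 0.74, adjusted p = 0.00874), and Dbp, its PAR bZIP relative, in the CD133 knockdown (0.75, adjusted p = 0.0151). Nfil3, a repressor at the same sites, fell in the CD133 knockdown (-0.83, adjusted p = 0.0201), as did Hhex (-0.39, adjusted p = 0.0367). Nr5a2 was higher in the Glis3 than in the CD133 knockdown (0.59, adjusted p = 0.0473).

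Of 31 tested cytokine signalling genes, 5 rose and 3 fell in the Glis3 knockdown, and 3 rose and 5 fell in the CD133 knockdown. Osmr, the oncostatin M receptor that feeds STAT3, fell in both (-1.07, adjusted p = 0.018, and -0.95, adjusted p = 0.0276). Socs3, a feedback inhibitor of STAT3 signalling, fell in the CD133 knockdown (-1.01, adjusted p = 0.0119) and was lower there than in the Glis3 knockdown (log2 difference 0.64, adjusted p = 0.0402). Tnf rose in both (0.61, adjusted p = 0.0133, and 0.87, adjusted p = 0.0111), Il1a in the Glis3 knockdown (0.87, adjusted p = 0.0204; against the CD133 knockdown 0.82, adjusted p = 0.0467), and Nfkbia did not pass (-0.21 and -0.03).

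The calls of the genes named from these 8 lists were sensitive to leaving out single libraries. Each ended without control library 1, and each but Tnf in the Glis3 knockdown ended without control library 3. Most calls over all tested genes ended there too, so these losses are not particular to the named genes. Without Glis3 library 3, the Glis3 knockdown calls of Igfbp4, Hpx, Lcn2, Cp, C3, C4b, Nptx2, Gpx2, Aldh1a1, Osmr and Il1a ended, and without Glis3 library 1 those of Nptx2 and Gpx2. Without CD133 library 1, the CD133 knockdown calls of Habp2, Cfp, Rbp2, Gpc2, Nptx2, Stra6, Notum, Nfil3, Dbp, Tef, Hhex, Osmr, Socs3 and Tnf ended, and without CD133 library 3 those of Gpc2, Nptx2, Stra6 and Hhex. The Glis3 knockdown calls of Nptx2 and Gpx2 also ended without CD133 library 1 and without CD133 library 3. The calls between the knockdowns named above (Serpine2, Rarb, Nr5a2, Socs3, Il1a) all ended without CD133 library 1, and all but Nr5a2 without CD133 library 3. Those of Nr5a2 and Socs3 ended without Glis3 library 1, and those of Rarb, Nr5a2 and Il1a without Glis3 library 3. After median centring, the calls of Rbp2 and Stra6 in the CD133 knockdown and of Gpx2 in the Glis3 knockdown ended, and after quantile normalization those of Habp2, Rbp2, Stra6, Notum and Lcn2. Without a variance trend the calls of Lcn2, Stra6, Rarb and Nr5a2 ended, with a pseudocount of 0.1 those of Rbp2 and Rarb, and with a pseudocount of 5 that of Rbp2.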

How the data were processed

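Libraries were stranded and poly(A)-selected, per the labels' protocols. The authors deposited RPKM values, 1 table of 11164 genes and 6 libraries. TopHat2, HTSeq, bcl2fastq 2.18.0.12 and build mm10 are named in the submitters' processing notes. Their settings, the annotation and strand handling are not stated there. Every gene reached 1 RPKM in some library. Low values gave an estimate of depth, but whole reads could not be recovered and no count test was run. No per-sample column was left unused (0).

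Values were analysed as log2(RPKM + 1), with a pseudocount of 1, keeping 10829 genes whose mean reached 1 RPKM, all 9 members among them. limma 3.58.1 (R 4.3.3) fitted 3 group means with a variance trend (3 residual and 3.69 prior degrees of freedom), and p-values are two-sided and Benjamini-Hochberg adjusted over all tested genes, called under 0.05. The fit was checked on simulated data. Members and lists were chosen with earlier results of these data known, so no p is given for members. Named genes are the members, the targets, up to 4 called genes and the most abundant gene of each list, and the 3 nearest profiles. A few genes that this rule picks are counted but not reported here by name. Gene coordinates are from GENCODE M21 (GRCm38). Alternatives were another pseudocount (0.1 or 5), no filter or a minimum of 5 RPKM, median centring, quantile normalization, no variance trend, a replicate block and leaving out each library.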

Additional observations from a re-analysis of the deposited data

How the results depend on the processing

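The differences of all 9 members from control kept their sign in every setting run (11 or 12 a member). The control libraries of each member overlapped neither knockdown, so only median centring or quantile normalization could have changed a sign. The pseudocount moved low genes most: C4bp in the Glis3 knockdown ranged from 0.37 to 1.19 over the settings and Hp from -2.21 to -0.88. Between the knockdowns, Hp, Apcs, Rbp4 and Gpc3 changed sign when some libraries were left out. Genes called numbered 1400 (Glis3 knockdown against control), 1278 (CD133 knockdown against control) and 440 (between knockdowns). A minimum of 5 RPKM gave 913 in the first. Leaving out each library gave 21 to 1343, 0 to 1673 and 46 to 756; the 0 arose without control library 1 or 3 (limma), with 2449 and 2680 genes at unadjusted p under 0.05. Of the called genes, 64.9% were higher in the Glis3 knockdown, 44.7% after median centring and 50.7% after quantile normalization; in the CD133 knockdown 69.2%, 47.7% and 50.6%.

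Of the 33 plasma list genes, 12, 2 and 3 were lower in the 3 comparisons. Without a filter 38 genes were tested and 16, 5 and 5 were lower, and with a minimum of 5 RPKM 7, 1 and 3 of 20. The genes added without a filter include Fgg, Fga and Orm1, which reached 1 RPKM only in control. Leaving out a library gave 0 to 18, 0 to 6 and 0 to 8. The complement median in the CD133 knockdown was -0.167, but ranged from -0.365 without CD133 library 3 to 0.0298 without CD133 library 1. Causes were not tested.

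The labels do not say that replicate numbers pair the libraries, and library 1 minus library 3 differences correlated across genes at -0.372 (control and Glis3), -0.428 (control and CD133) and 0.0322 (the knockdowns). With a replicate block 608, 335 and 79 genes were called, and 4, 1 and 0 plasma list genes were lower. Of the genes named, the block ended the Glis3 knockdown calls of Gc, Hpx, Lcn2, Cp, C3, C4b, Nptx2, Gpx2 and Aldh1a1, the CD133 knockdown calls of Habp2, Rbp2, Gpc2, Nptx2, Stra6, Notum, Nfil3, Hhex and Osmr, and the calls between knockdowns of Serpine2, Rarb, Nr5a2, Socs3 and Il1a.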

Other observations

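Several plasma protein genes lay under the filter of 1 RPKM and were not tested; they were chosen after their values were seen. Fgg, the gamma chain of fibrinogen, read 0.89 and 1.08 RPKM in control, 0.21 and 0.03 in the Glis3 knockdown and 0.15 and 0.17 in the CD133 knockdown. Fga, the alpha chain, read 1.08 and 1.53, then 0.53 and 0.16, then 0.26 and 0.36. Orm1, orosomucoid, read 0.96 and 1.28, then 0.52 and 0.23, then 0.15 and 0.28. In all 3 genes both controls lay above the 4 knockdown libraries, an order that 11.5% of the tested genes shared. Every gene with a row reached 1 RPKM in some library, and these 3 did so only in control. They have a row only through the group where they were high, so nothing is read from their order. Saa3, serum amyloid A3, read 0.19 and 0.47, then 0.48 and 0.05, then 1.76 and 1.73. It was highest in the CD133 knockdown, the only group where it reached 1 RPKM. Apoa2 read 1.32 and 0.64, then 1.38 and 1.70, then 0.22 and 0.41, lowest in the CD133 knockdown as Ttr and Mup20 were. It reached 1 RPKM in no CD133 library.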
